A study of Mus musculus with 6 samples.

Results

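The mitochondrial transcript share of a cell is the percentage of its UMIs (counted RNA molecules) that come from genes of the mitochondrial genome. It was described here in every cell and nucleus of the deposited table, in all 10 conditions. These were 33158 whole cells and 18627 nuclei, 51785 in all. All samples are PB3, a mouse mammary tumour cell line carrying lentiviral lineage barcodes, which are short synthetic sequences that daughter cells inherit. Run 1 gave untreated cells (UNT cells) and cells after 4 rounds of eribulin (ERI4 cells), each with 1 library. Run 2 gave 1 library of cells after 1, 2 and 3 rounds of eribulin (ERI1, ERI2, ERI3) and 1 library of cells after 1, 2 and 3 rounds of paclitaxel (PAC1, PAC2, PAC3), with the 3 conditions of a library told apart by hashtag oligos. Run 3 gave nuclei of untreated cells (UNT nuclei) and nuclei taken after 4 eribulin rounds (ERI4 nuclei), from a combined RNA and chromatin assay. Cells in an eribulin round were exposed for 72 h at 500 nM and then recovered for 48 h. Paclitaxel was dosed at 100 nM over 72 h in its opening round and at 250 nM afterwards, and 48 h of recovery separated the opening round from the next. Recovery at the end of treatment is not mentioned for PAC2, and for PAC1 and PAC3 its duration is not stated. There were no replicate cultures, so no test was made, and intervals below cover counting error over the cells of 1 library only.

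Mitochondria carry their own small circular genome, which encodes core subunits of the respiratory chain and of ATP synthase together with the ribosomal and transfer RNAs that translate them. The GENCODE annotation of the mm10 mitochondrial chromosome lists 37 genes: 13 for proteins, 2 for ribosomal RNAs and 22 for transfer RNAs. The protein genes are 7 subunits of complex I (mt-Nd genes), mt-Cytb of complex III, 3 subunits of cytochrome c oxidase (mt-Co genes) and 2 of ATP synthase (mt-Atp genes). These transcripts stay inside the organelle, outside the nucleus. In single-cell work a high share together with few genes is the usual mark of a damaged cell that has lost cytoplasmic RNA, while moderate levels differ between cell types and metabolic states. Eribulin and paclitaxel both act on microtubules, the first by blocking their growth and the second by stabilising them.

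The share was a narrow quantity in whole cells, and the quartile ranges of conditions of a run overlapped, although some medians differed. The median was 4.09% in UNT cells, with quartiles of 3.65% and 4.59%. In ERI4 cells of the same run it was 4.70%, with quartiles of 4.17% and 5.29%. The ranges between the quartiles overlapped, and the upper quartile of UNT cells lay below the median of ERI4 cells. In run 2, ERI1 cells had a median of 3.05%, ERI2 cells of 3.81% and ERI3 cells of 2.98%. PAC1 and PAC2 cells had medians of 2.88% each, and PAC3 cells one of 2.60%. ERI2 thus stood highest of the run 2 conditions and PAC3 lowest. ERI2 also varied most from cell to cell, with quartiles of 2.91% and 4.82%, a width of 1.91 percentage points, against 1.03 in PAC3 and 0.939 in UNT cells. Counting of UMIs alone would give a cell at its condition's median a standard deviation between 0.129 (PAC2) and 0.160 (ERI3) percentage points in cells, well under the spread seen. All run 2 medians were below those of run 1, but run 2 has no untreated library, so run and treatment cannot be told apart across runs.

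Nuclei had higher shares than cells. The median was 9.43% in UNT nuclei, with quartiles of 7.98% and 11.04%, and 12.8% in ERI4 nuclei, with quartiles of 10.3% and 15.8%. Nuclei and cells were prepared and counted in different runs and assays, so the gap between them cannot be ascribed to the compartment. A nucleus at the median carried fewer mitochondrial UMIs than a cell: 316 (UNT nuclei) and 271 (ERI4 nuclei), against 762 in UNT cells and 983 in ERI4 cells. Its other UMIs were 3109.5 and 1820, against 17670 and 19914 in the cells.

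**Figure D1:**
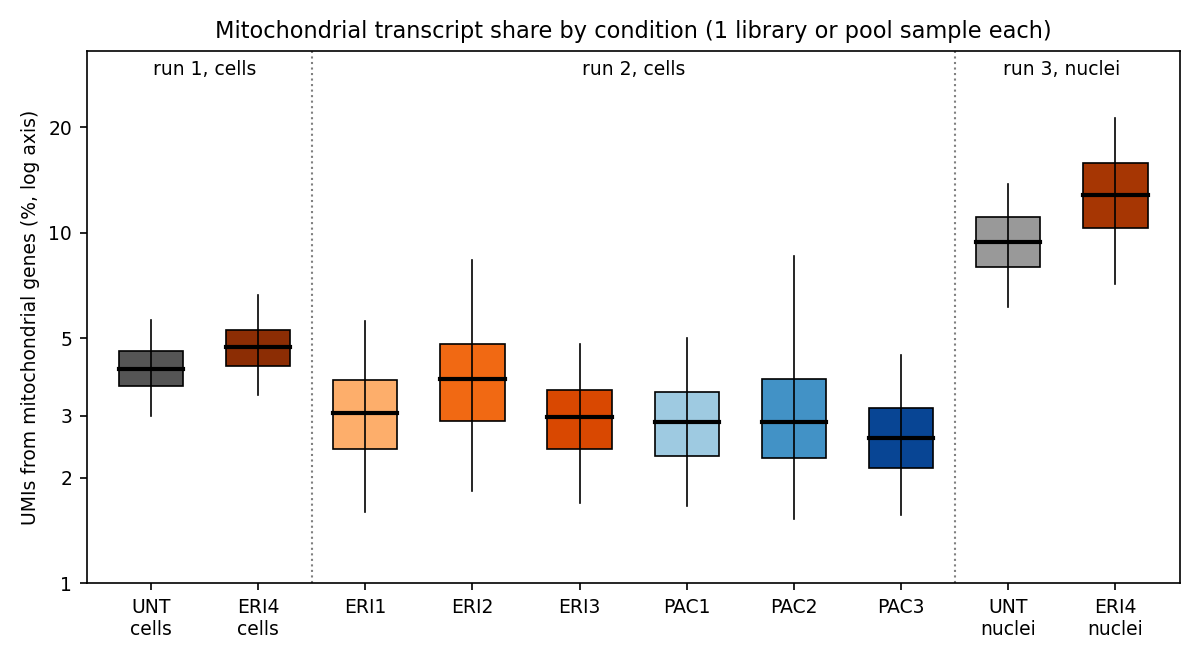
Percentage of UMIs from mitochondrial genes in each condition on a log axis; the bar is the median, the box the quartiles and the line the 5th to 95th percentile of cells, with 1 library or hashtag sample per condition. Medians of run 2 cells sit between 2.60% and 3.81%, those of run 1 cells at 4.09% and 4.70%, and those of nuclei at 9.43% and 12.8%.

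After 4 rounds of eribulin the share was higher than in untreated samples, in cells and in nuclei. The difference of medians was 0.617 percentage points in cells (95% interval 0.590 to 0.645), and the ERI4 cell had the higher share in 70.6% of random pairs. In nuclei it was 3.40 points (3.28 to 3.51), with the nucleus from ERI4 on top in 77.4% of pairs. What moved with it differed between the preparations. ERI4 cells had 1.29 times the mitochondrial UMIs and 1.13 times the other UMIs of UNT cells at the median, so both kinds were more numerous. ERI4 nuclei had 0.858 times the mitochondrial UMIs and 0.585 times the other UMIs of UNT nuclei, so both were fewer and the higher share went with a smaller denominator. Among nuclei of both conditions with 2176.5 to 4971 UMIs, where the median depth was 2929 in ERI4 and 3247 in UNT, the difference was 4.57 points. It was thus no smaller in the range of depth that both conditions hold, although depth was not matched within that range.

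Under eribulin in run 2 the share was higher after 2 rounds than after 1, and lower again after 3. These 3 conditions were captured in 1 library. ERI2 exceeded ERI1 by 0.766 points (0.621 to 0.862), with the ERI2 cell higher in 65.7% of pairs. Mitochondrial UMIs at the median were 668 against 526, whereas other UMIs were nearly level, at 16615 against 16810. The difference from ERI2 to ERI3 was -0.837 points (-0.922 to -0.698), and the ERI3 cell was higher in 31.3% of pairs. There both kinds of UMI were fewer, with 331 mitochondrial and 10919 other UMIs in ERI3. ERI3 and ERI1 ended close together, with a difference of -0.0709 points (-0.135 to -0.00427), which was -0.157 among G1 cells and 0 after thinning each cell to 1000 UMIs. Thinned shares move in steps of 1 UMI in 1000, coarser than this difference, so that 0 cannot show whether it persists.

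Under paclitaxel the first 2 rounds gave nearly the same median and the third a lower one. PAC2 minus PAC1 was -0.00117 points (-0.0912 to 0.112), a value whose sign changes with the setting, while mitochondrial UMIs were 510 against 346 and other UMIs 16191.5 against 11336.5. Mitochondrial and other transcripts were thus more numerous by nearly the same factors, 1.47 and 1.43. PAC3 minus PAC2 was -0.277 points (-0.388 to -0.191), and the PAC3 cell was higher in 40.8% of pairs.

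At the same number of rounds the share was higher with eribulin than with paclitaxel, by amounts that differed by round. ERI2 exceeded PAC2 by 0.936 points (0.767 to 1.05) at similar depth, with 16615 and 16191.5 other UMIs. ERI3 exceeded PAC3 by 0.376 points (0.338 to 0.431), with 331 and 335 mitochondrial UMIs. ERI1 exceeded PAC1 by only 0.169 points (0.105 to 0.239), and by 0.102 when all UMIs of a condition were pooled. Drug, dose, library and recovery cannot be told apart in these differences.

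Differences were then taken within the authors' expression clusters, which are numbered here as deposited, where a cluster had 20 or more cells in both conditions. Cluster 13, which holds the cells with the highest shares and is described further on, is left out of the clusters counted as shared and of the rest with which a cluster is compared. Cluster 7 held 90.7% of ERI1 and 87.7% of ERI2, and within it the ERI2 median was 3.85% against 3.05% in ERI1, a difference of 0.795 points (0.655 to 0.884). The difference between these rounds was as large within their shared main cluster as over all cells, which are mostly the same cells. From ERI2 to ERI3 most cells were in other clusters. Within cluster 7 the difference was -0.235 points (-0.549 to 0.0195, 102 ERI3 cells) and within cluster 2 it was -0.396 (-0.788 to -0.0167, 37 ERI2 cells), both smaller than the -0.837 of all cells. From ERI1 to ERI3 the sign within clusters was opposite to that over all cells, with 3.61% against 3.05% in cluster 7, a difference of 0.560 (0.249 to 0.786), and 0.466 in cluster 1 (-0.302 to 0.903, 23 ERI1 cells). These clusters held 91.9% of ERI1 but only 4.36% of ERI3. Within cluster 9, which held 39.6% of PAC2 and 38.3% of PAC3, the median was 2.55% in PAC2 and 2.24% in PAC3, a difference of -0.312 (-0.431 to -0.212). Within cluster 2 the same step gave 2.84% and 2.82%, a difference of -0.0188 (-0.253 to 0.220), and within cluster 6 it was -0.0491 (-0.735 to 0.417). Cluster 7 went the other way, with 3.33% in PAC2 and 4.05% in the 26 PAC3 cells there, a difference of 0.718 (0.00275 to 1.30).

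Between drugs, the difference after 1 round had another sign within clusters than over all cells. In cluster 7 the ERI1 median of 3.05% lay below the PAC1 median of 3.32%, a difference of -0.271 (-0.483 to 0.00364), and in cluster 1 the difference was -0.384 (-0.764 to 0.320, 23 ERI1 cells). Cluster 7 held 90.7% of ERI1 and 5.46% of PAC1, so the drugs occupied different clusters at this point. After 2 rounds eribulin was higher in cluster 7 by 0.517 (0.273 to 0.692) and in cluster 2 by 0.560 (0.121 to 1.01), whereas cluster 9 gave -0.0157 (-0.463 to 0.404). After 3 rounds the difference was 0.183 in cluster 2 (0.115 to 0.256) and 0.218 in cluster 8 (0.0508 to 0.363), less than the 0.376 of all cells, and eribulin was higher in 4 of the 6 shared clusters, with -0.235 in cluster 3 and -0.436 in cluster 7.

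The excess of ERI4 over UNT could be followed within clusters for only part of either library. In nuclei, 6 clusters held 20 or more nuclei of both conditions, with 67.3% of ERI4 nuclei and 19.0% of UNT nuclei. ERI4 was higher in 5 of them, by 2.31 points in cluster 4 to 5.41 in cluster 7, and 4 of these rest on 30 to 52 UNT nuclei. The exception was cluster 11, with 8.35% in 25 ERI4 nuclei and 8.41% in 1227 UNT nuclei. In cells the shared clusters 1, 6, 9 and 11 held 1.82% of ERI4 cells and 66.3% of UNT cells. There the differences were 0.106 points in cluster 1 (-0.174 to 0.368), 0.387 in cluster 6 (-0.0181 to 0.666) and 1.80 in cluster 9 (1.25 to 2.96, 36 ERI4 cells). Cluster 11 had the opposite sign, at -3.49 (-3.64 to -1.53, 26 ERI4 cells). In cluster 13, with 30 ERI4 and 20 UNT cells, the difference was -2.03 (-7.32 to 3.60).

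Some clusters stood high or low in several conditions. These clusters were built from expression in the same cells, in which mitochondrial genes may have taken part, so their levels are descriptions. In run 2, cluster 7 lay above the other cells of its condition, cluster 13 left out, in 6 of 6 conditions, by 0.467 points in PAC1 to 1.47 points in PAC3. With cluster 13 among the other cells it was still higher in all 6, but by less where cluster 7 was most of the condition, at 0.258 in place of 0.654 in ERI1 and 0.436 in place of 0.974 in ERI2. Its medians were 3.05% in ERI1, 3.85% in ERI2, 3.61% in ERI3, 3.32% in PAC1, 3.33% in PAC2 and 4.05% in PAC3. Cluster 9 lay below the rest in the 4 run 2 conditions with 20 or more of its cells, by -0.402 in PAC1 to -1.24 in ERI2. In ERI4 cells cluster 9 was above the rest instead, at 5.45%, in 36 cells with a median of 6909 UMIs. Clusters 7 and 9 together held most of PAC2, at 3.33% and 2.55%, so the PAC2 median of 2.88% describes neither.

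In run 1 the main clusters were close to each other. UNT cells had 4.05% in cluster 1, 4.12% in cluster 5 and 4.05% in cluster 6. The small cluster 0 of UNT cells was higher, at 5.38% in 339 cells with a median of 11059 UMIs. ERI4 cells had 4.85% in cluster 3, their largest, then 4.55% in cluster 2 and 4.35% in cluster 8. Cluster 10 stood above them at 6.23% in 157 shallow cells (median 4729 UMIs), and it was also the highest cluster of ERI4 nuclei, at 15.4% in 2121 nuclei. There it was the deepest of the 2 main clusters, with 4215 UMIs against 1615 in cluster 4, whose median share was 11.8%.

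**Figure D2:**
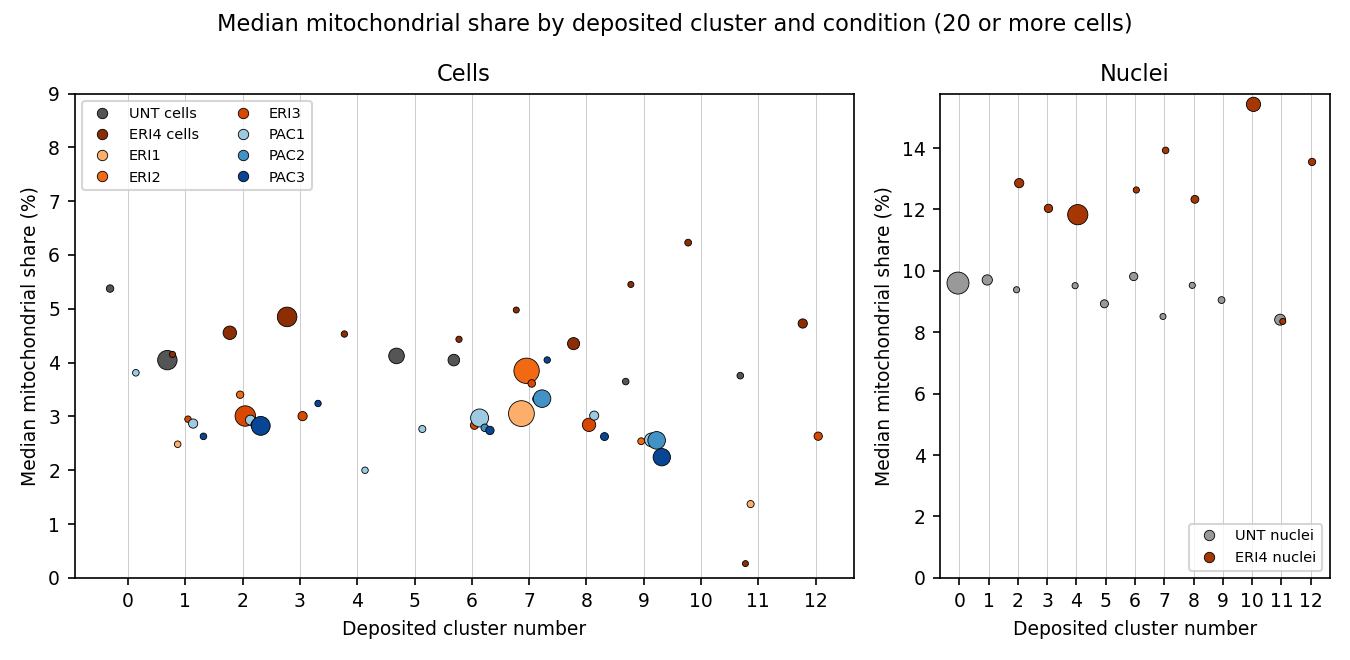
Median mitochondrial share of each deposited cluster in each condition, for cells (left) and nuclei (right), where 20 or more cells were present; the point size grows with the share of the condition in that cluster, and cluster 13 lies off the scale. Within run 2, points of cluster 7 lie between 3.05% and 4.05% and points of cluster 9 between 2.24% and 2.56%.

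The upper tail was almost entirely cluster 13. Of the 298 cells with a share over 20%, 281 lay in it, and 242 came from run 2. The cluster had a median of 68.2% with 1095 UMIs per cell over all cell conditions. In run 1 its medians were 39.8% in UNT cells and 37.8% in ERI4 cells, whereas in run 2 they ran from 68.2% in ERI3 to 77.9% in ERI2. The highest values were 48.8% in UNT cells and 49.6% in ERI4 cells, but 179 run 2 cells exceeded 50%, the limit of the filter that the series' design text states. These 179 cells had a median of 162 genes and 769 UMIs. Only 10.7% of the cells over 20% carried a single called lineage barcode, against 63.1% of all cells. Cluster 13 made up 4.48% of PAC2, 3.50% of ERI2, 2.04% of PAC3 and 1.93% of ERI1, and 0.181% of UNT cells. Whether the stated filter was meant for run 2 is not given in the sources used here, so the size of the cluster is not compared between runs.

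Cells over 10% followed the same order. They made up 4.83% of PAC2 (exact 95% interval 3.49 to 6.50), 3.98% of ERI2 (2.97 to 5.21), 2.40% of PAC3 (1.87 to 3.04) and 2.31% of ERI1 (1.67 to 3.09). ERI3 had 1.66% (1.24 to 2.17) and PAC1 1.40% (1.01 to 1.90). In run 1, UNT cells had 0.362% (0.258 to 0.492) and ERI4 cells 0.932% (0.748 to 1.15). Cells over 50%, outside the stated filter, were 33 of the 41 in PAC2, 33 of 50 in ERI2 and 45 of 67 in PAC3. They were 26 of 43 in ERI1, 23 of 51 in ERI3 and 19 of 41 in PAC1. Run 1 held none, so these shares are not compared between runs, and shares without those cells were not computed. Within each drug the second round had the largest share of cells over 10%. Many of them are shallow: after thinning to 1000 UMIs, with shallower cells left out, the shares were 2.74% in ERI2, 2.18% in PAC2, 1.34% in PAC3, 1.19% in ERI1, 0.884% in ERI3 and 0.756% in PAC1. ERI2 then had the highest share of run 2 in place of PAC2, and the second round was still the highest of each drug. In nuclei the figure is near the centre of the distribution and reached 40.2% (UNT) and 77.9% (ERI4). Nuclei over 20% numbered 631, of which 616 were ERI4 nuclei, 318 in cluster 10 and 226 in cluster 4, and they were not shallow, with a median of 3270 UMIs.

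A small group of cells had a very low mitochondrial share. Under 1% lay 128 whole cells, 80 of them in cluster 11, and their median depth of 13520.5 UMIs and 3386.5 genes was in the range of intact cells. Their median share was 0.523%. In ERI4 cells, 26 cells of cluster 11 had a median of 0.264%, with quartiles of 0.144% and 2.62%. In UNT cells the same cluster had 3.76%, with a lower quartile of 2.00%, and in ERI1 it had 1.37%. The lowest single values were 0.0218% in UNT cells and 0.0298% in ERI1. At the median the 24 ERI4 cells under 1% held 25 mitochondrial UMIs among 14657, and the 28 UNT cells under 1% held 23 among 9539.5. Of the 128 cells, 76 came from run 2, where the median was higher, from 44 mitochondrial UMIs in ERI3 to 146 in PAC2. A called barcode was present in 57.8% of the cells under 1%, against 63.1% of all cells. In run 1 it was rarer, in 8 of the 28 UNT cells and 10 of the 24 ERI4 cells, against 46.0% and 72.1% of these conditions. In run 2 it was present in 11 of 18 such cells in ERI1, 11 of 16 in ERI2 and 10 of 17 in ERI3. Under paclitaxel the counts were 5 of 6 in PAC1, 12 of 12 in PAC2 and 7 of 7 in PAC3. In nuclei, 8 of the ERI4 library lay under 1%, and the lowest nucleus of the UNT library had 1.35%.

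Cells with phase scores of G1 had slightly more mitochondrial share than cells called G2M. Phases were set from the deposited S and G2M scores, with G1 where neither was above 0. In all 8 cell conditions the G2M median was below the G1 median, by -0.150 points in PAC2 to -0.524 in ERI4 cells. The medians in ERI4 cells were 5.06% in G1, 4.47% in S and 4.53% in G2M. In UNT cells they were 4.24%, 4.06% and 4.01%. G1 was highest in 7 conditions, and S in PAC2. Within the largest cluster of each condition G2M was again below G1 in 8 of 8, while G1 was highest in 6. Cells called G2M also had more UMIs, for example 25189 against 16788 in ERI4 cells, and the part of depth in this difference was not tested. The absolute number of mitochondrial UMIs went the other way, with 1135 in G2M and 838 in G1. Nuclei have no deposited phase scores.

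Depth and mitochondrial share were related in opposite ways in run 1 cells and in nuclei. Across 11061 UNT cells the rank correlation was -0.241, and across 9331 cells of ERI4 it was -0.304. Across nuclei it was 0.128 in 9916 UNT nuclei, and 0.392 across 8711 of ERI4. Total UMIs are the denominator of the share, and the cells of a condition share a library, so these values are descriptions. With ERI4 nuclei split by depth into 4 equal bins, the median from the shallowest to the deepest bin was 10.8%, 12.2%, 13.2% and 15.4%. Bins made in the same way from ERI4 cells had 5.18%, 4.76%, 4.56% and 4.44%. In run 2, after leaving out cluster 13, the correlation lay between -0.114 in ERI1 and 0.00472 in PAC3. Between 4000 and 32000 UMIs, ERI2 lay above the other 5 conditions of run 2 in every depth bin, with 3.79%, 3.77% and 3.76%. PAC3 was lowest in each of these bins, at 2.60%, 2.56% and 2.62%.

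**Figure D3:**
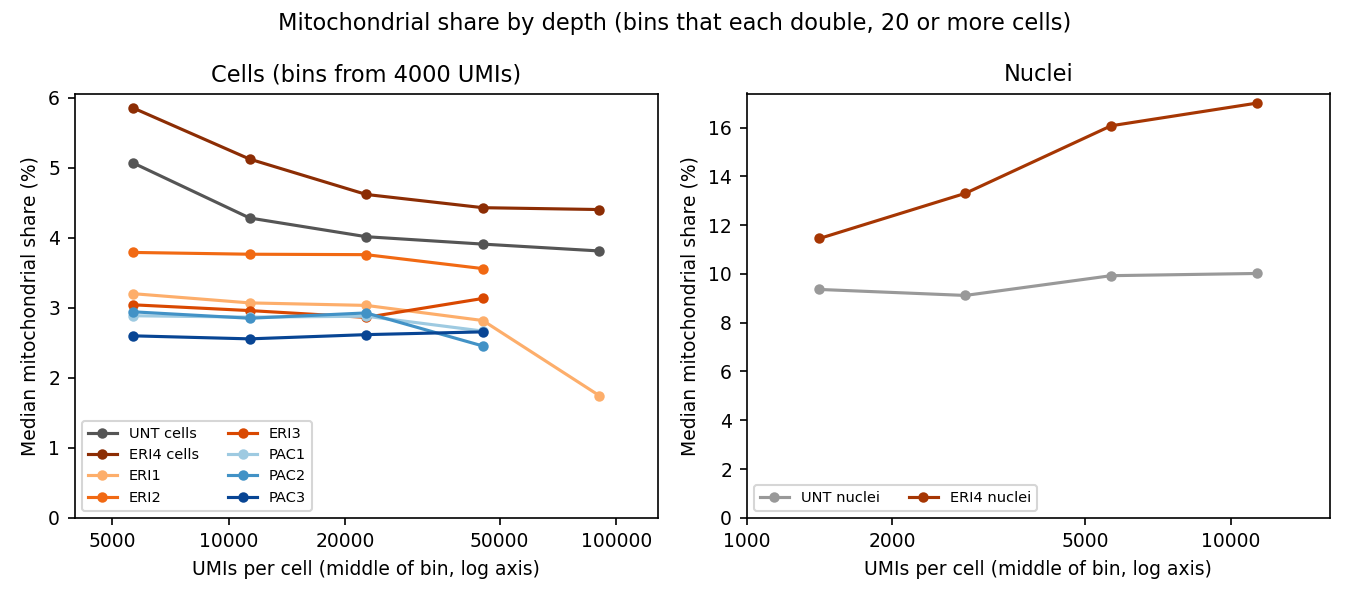
Median mitochondrial share in bins of UMIs per cell that double in size, for cells from 4000 UMIs (left) and for nuclei (right), with bins of 20 or more cells and UMIs on a log axis. The run 1 cell lines slope down with depth, the ERI4 nuclei line climbs from 11.5% to 17.0%, and ERI2 stays above the other run 2 lines.

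Along the authors' pseudotime, which starts from untreated cells, the share moved in some conditions only. In UNT cells the rank correlation was 0.0320, and 4 equal bins of pseudotime had medians between 4.00% and 4.15%. In ERI4 cells it was 0.273, and the last bin stood out with 5.15% against 4.42%, 4.58% and 4.62% in the earlier ones. The relation was not the same in the 2 largest clusters of ERI4 cells: 0.442 in 4686 cells of cluster 3 and -0.187 in 1967 cells of cluster 2. Cells of cluster 7 gave 0.271 (ERI1), 0.337 (ERI2) and 0.309 (PAC2). Over all ERI2 cells, cluster 13 included, the bins ran 3.24%, 3.80%, 4.02% and 4.22%. Cluster 13 of ERI2 had a median pseudotime of 19.6, within the last bin. Without it the correlation in ERI2 was 0.236, in place of 0.301. PAC3 had -0.236 over all cells, where the later bins were mostly cluster 9, but -0.0638 within cluster 2 and -0.0848 within cluster 9. UNT nuclei had 0.245 and ERI4 nuclei 0.343, with bins that ran from 10.7% to 15.0%. Pseudotime was computed from the same transcripts, and depth changed along it.

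Lineage barcodes allowed the share to be compared among descendants of the same marked cell. Of 697 called barcodes, 107 had 20 or more cells in at least 1 condition, 26 had 20 or more in at least 2 cell conditions, and 13 in 3 or more. The 26 held 14398 of the 20912 cells with a single called barcode. Each barcode is a 14-base part (bc14), a 4-base linker and a 30-base part (bc30). The 4 lineages on which the comparisons below turn most are shown 5′ to 3′ from the deposited list, with bc14 and bc30 in capitals and the linker in lower case.
bc14-76-bc30-49517: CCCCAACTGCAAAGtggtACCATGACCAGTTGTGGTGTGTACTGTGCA
bc14-39-bc30-41529: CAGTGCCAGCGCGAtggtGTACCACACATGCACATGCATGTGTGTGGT
bc14-6-bc30-93034: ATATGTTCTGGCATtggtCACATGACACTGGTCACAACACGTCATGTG
bc14-95-bc30-33662: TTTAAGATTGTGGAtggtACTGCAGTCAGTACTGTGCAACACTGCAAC
These sequences are distinct labels with no known function, and below the lineages are called by their 2 numbers, as in 76-49517. Lineages 95-33662, 65-62538 and 55-23349 are named after their values were seen.

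Within lineages, the higher share after 2 eribulin rounds was found in each of the 6 that could be followed from ERI1 to ERI2. The differences ran from 0.157 points in 22-18173 to 0.816 in 74-34057, with a median of 0.329. They were small against the spread within a lineage: the ERI2 cell was higher in 51.6% of pairs in 39-41529 and 51.1% in 55-37135, up to 72.8% in 74-34057. In a common UMI window all 6 were still above 0, but 22-18173 gave 0.00405 and 55-37135 gave 0.0186. Lineage 55-99383 gave 1.01 there in place of 0.327, and 0.0751 under the earlier barcode revision. The interval excluded 0 in 74-34057 alone (0.310 to 1.52), whose median was 2.70% in 33 ERI1 cells and 3.52% in 60 ERI2 cells. The within-lineage median was smaller than the 0.766 of all cells and the 0.639 of all cells with a single called barcode. Lineage 76-49517 had the highest share among lineages in both conditions, 3.69% in ERI1 and 4.14% in ERI2. It made up 4.20% of the called ERI1 cells and 27.4% of the called ERI2 cells. From ERI2 to ERI3, 3 of 3 lineages were lower. Lineage 76-49517 had 3.05% in 839 ERI3 cells, a difference of -1.09 (-1.42 to -0.902). Lineage 39-41529 went from 3.60% to 2.63%, a difference of -0.964 (-1.41 to -0.307), and 89-6288 from 3.36% to 2.98%, a difference of -0.380 (-1.005 to 0.109). All 3 also changed their main cluster. In ERI2, cluster 7 held 89.3% of 76-49517, 94.7% of 39-41529 and 97.2% of 89-6288. In ERI3 the main cluster was 2 for 76-49517 (93.0%) and 89-6288 (73.75%), and 12 for 39-41529 (87.5%). The part of cluster in these differences was not tested. Both 76-49517 and 39-41529 were also lower in ERI3 than in ERI1, by -0.634 each, which became -1.05 and -0.565 in the window. Lineage 6-93034 was not: it had 2.99% in 104 ERI1 cells and 2.95% in 554 ERI3 cells, a difference of -0.0366 (-0.213 to 0.163).

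Under paclitaxel the lineages differed less between rounds 1 and 2. From PAC1 to PAC2, 3 lineages were higher and 3 lower, between -0.340 in 6-93034 and 0.241 in 29-33048, and each interval included 0. From PAC2 to PAC3, 5 of 5 were lower, with a median of -0.278, against -0.277 over all cells. The interval excluded 0 in 76-49517, which had 3.37% in 125 PAC2 cells and 2.83% in 1118 PAC3 cells, a difference of -0.541 (-1.01 to -0.237). This lineage was 58.4% cluster 7 in PAC2 and 92.5% cluster 2 in PAC3. Within cluster 2 it had 2.72% in 43 PAC2 cells and 2.83% in 1034 PAC3 cells, so it was not lower there. The other differences were -0.394 in 33-33994, -0.278 in 4-67693, -0.170 in 29-33048 and -0.00648 in 6-93034. Under the earlier revision of the barcode calls 6-93034 turned to 0.0899. Lineage 4-67693, in cluster 9 in all 3 rounds, had 2.64%, 2.50% and 2.22%. Its PAC3 median rests on 487 cells.

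Between drugs, most lineage differences after 1 round were not resolved, and few lineages could be compared after later ones. After 1 round 4 lineages had a higher median with eribulin and 5 a lower one. The differences ran from -0.515 in 38-7217 (-1.01 to 0.252, 20 ERI1 cells) to 0.699 in 55-99383 (0.278 to 1.15, 25 PAC1 cells). The interval excluded 0 in 2 of the 9, 55-99383 and 76-49517 (0.482, 0.0750 to 1.16), both higher with eribulin. After 2 rounds the 1 lineage with enough cells, 76-49517, was higher with eribulin by 0.767 points (0.272 to 1.21). After 3 rounds the 2 lineages present were 6-93034, higher by 0.324 (0.141 to 0.450), and 76-49517, higher by 0.221 (0.136 to 0.315). No lineage had 20 or more cells in both UNT cells and ERI4 cells. In nuclei 39-41529 did, with 9.33% in 44 nuclei of UNT and 14.9% in 79 of ERI4, a difference of 5.57 points (3.83 to 7.27).

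**Figure D4:**
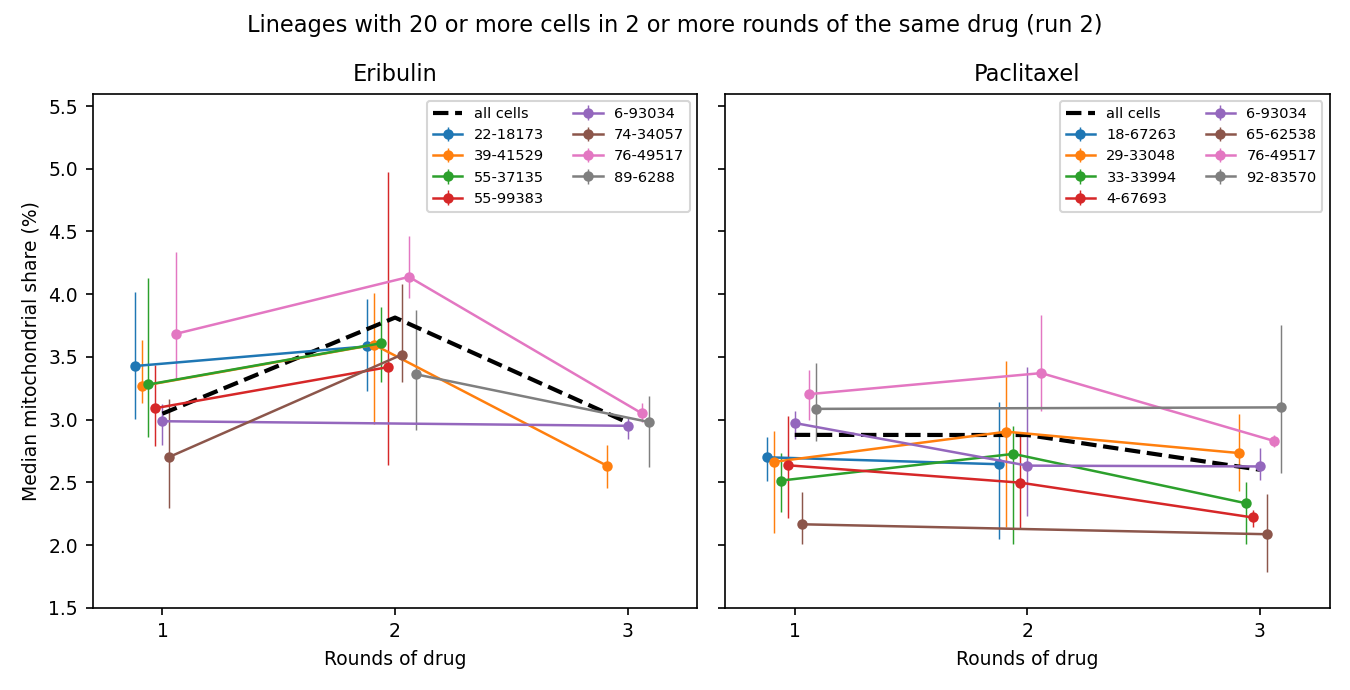
Median mitochondrial share of lineages with 20 or more cells in at least 2 rounds of eribulin (left) or paclitaxel (right); bars are 95% order-statistic intervals of the median, which cover counting error only, and the dashed line is the median of all cells. From ERI1 to ERI2 each of the 6 lineages with a value in both is higher, and 76-49517 has the highest lineage median in ERI1, ERI2 and PAC2.

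In whole cells, lineages of 1 cluster and condition mostly lay near each other, with a few exceptions that recurred in separate libraries. Over 131 combinations of lineage, cluster and cell condition with 20 or more cells, the lineage lay within 0.5 points of the other cells of its cluster in 93.9%. The interval excluded 0 in 32, or 24.4%, of which 14 were higher and 18 lower. These intervals were not adjusted for their number. The same 0.5 points is a stricter limit in nuclei. Quartile widths were 3.07 points in UNT nuclei and 5.44 in ERI4 nuclei, against 0.939 (UNT cells) to 1.91 (ERI2) in cells. In nuclei, 44.4% of 54 such combinations lay within 0.5 points, a figure that cannot be set against the 93.9% of cells. There the interval excluded 0 in 11, of which 7 were higher and 4 lower. In cluster 8, lineage 95-33662 had a lower share than lineage 6-93034 in ERI4 cells of run 1 and in ERI3 of run 2. These lineages made up 1252 of the 1503 ERI4 cells and 598 of the 636 ERI3 cells of the cluster, so either one against the remaining cells is mostly a comparison with the other. In ERI4 cells of run 1, 651 cells of 95-33662 had a median of 3.95%, with quartiles of 3.56% and 4.42%. There 601 cells of 6-93034 had 4.64%, with quartiles of 4.22% and 5.08%, and the difference was -0.694 points (-0.785 to -0.596). In ERI3 of run 2, 101 cells of 95-33662 had 2.47% and 497 cells of 6-93034 had 2.95%, a difference of -0.487 (-0.666 to -0.292). The cell of 6-93034 was the higher one in 75.4% of pairs in ERI4 and in 66.6% in ERI3. Depth was close, with 21204 and 20485 UMIs in ERI4 cells and 10149 and 10264 in ERI3. Mitochondrial UMIs were 842 and 968 in ERI4 cells, and 237 and 295 in ERI3. Among G1 cells the medians were 4.21% and 4.85% in ERI4 and 2.35% and 2.95% in ERI3. Cells of the cluster with neither barcode stood differently in each condition. In ERI4 cells the 251 of them had 4.66%, level with 6-93034, which differed by -0.0149 (-0.190 to 0.175), and above 95-33662, which differed by -0.709 (-0.885 to -0.514). In ERI3 the 38 of them had 2.68%, between the lineages, and both intervals included 0. In PAC1, where 6-93034 had 113 cluster 8 cells, it was not high, with 2.97% against 3.15% in the 90 others, a difference of -0.175 (-0.420 to 0.176). In ERI4 nuclei of cluster 8 the lineages were not resolved, with 12.2% in 40 nuclei and 13.4% in 65, a difference of -1.17 (-2.29 to 1.28).

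Lineage 76-49517 was high in cluster 7, and in cluster 2 it lay near the other cells in whole cells but not in nuclei. In cluster 7 it had 3.93% in 51 ERI1 cells against 3.04% in the 1640 others, a difference of 0.893 (0.489 to 1.35). In ERI2 it had 4.23% against 3.73%, a difference of 0.499 (0.232 to 0.833), and in PAC2, from the other library, 4.24% against 3.17%, a difference of 1.07 (0.504 to 1.87). Its cells lay later in pseudotime, with medians of 15.0 against 13.6 in ERI1, 14.9 against 13.6 in ERI2 and 14.7 against 13.7 in PAC2, and their depth was somewhat larger, with 22554 against 20947 UMIs in PAC2. The part of either in the difference was not tested. Among G1 cells the cluster 7 difference was 1.47 in ERI1 and 2.73 in PAC2, from 16 and 18 cells of the lineage, and 0.648 in ERI2. In cluster 2 its difference was 0.0641 in ERI3 (-0.0507 to 0.155), 0.0360 in PAC3 (-0.154 to 0.141) and -0.0711 in ERI4 cells (-0.174 to 0.0272). It was 0.118 in PAC1 (-0.170 to 0.437) and -0.282 in PAC2 (-1.52 to 0.220), where cluster 2 had only 22 other cells. In ERI4 nuclei of cluster 2 the lineage was higher, with 14.02% in 84 nuclei against 12.7%, a difference of 1.31 (0.118 to 2.54). It was also higher in cluster 10 of ERI4 nuclei, by 1.65 (0.847 to 2.52). There 55-23349 lay above the other nuclei too, by 0.848 (0.0964 to 1.76). The differences of 39-41529 (1.74, -2.08 to 3.53, 22 nuclei), 95-33662 (1.23, -0.261 to 2.52) and 6-93034 (-0.688, -1.90 to 0.252) had intervals that included 0. Of ERI4 nuclei, 81.8% had no called barcode, with a median of 12.6% at 1965 UMIs. Nuclei with a single called barcode had 14.2% at 3070 UMIs. The part of barcode calling and depth in these nuclei differences was not tested. In cluster 9, lineage 65-62538 lay low in PAC1, with 2.12% against 2.59%, a difference of -0.472 (-0.646 to -0.262). In PAC3 the same lineage had 2.03% against 2.25%, a difference of -0.216 (-0.467 to 0.150). The lineage most frequent in ERI4 cells, 55-23349, had 4.85% in cluster 3, and the other 255 cells there had 4.75%, a difference of 0.100 (-0.0635 to 0.191).

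**Figure D5:**
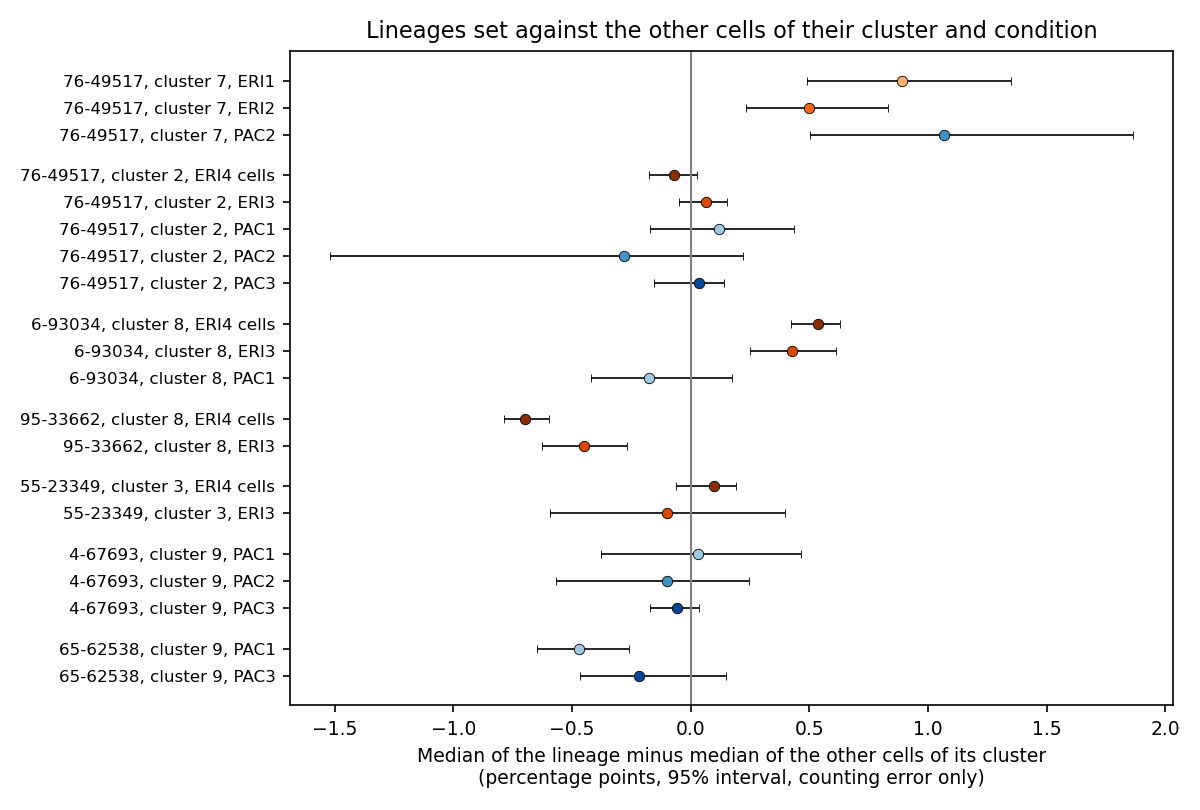
Difference in median mitochondrial share, in percentage points, between a lineage and the other cells of the same cluster and condition, with 95% intervals that cover counting error only. Lineage 76-49517 is above 0 in cluster 7 by 0.499 to 1.07 and between -0.282 and 0.118 in cluster 2 of whole cells. In cluster 8 the points of 6-93034 and 95-33662 in ERI3 and ERI4 cells show largely 1 difference from both sides, since these lineages hold most of the cluster.

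Across lineages as a whole the spread was small. Lineage medians ran from 3.66% to 4.52% over 59 lineages of UNT cells, with a standard deviation of 0.215 points, whereas the cells of a typical lineage had a quartile width of 0.815 points. Those of the 8 lineages of ERI4 cells ran from 3.97% in 95-33662 to 4.85% in 55-23349. In run 2 the standard deviation over lineages was between 0.223 points in ERI2 and 0.347 in PAC3. The order of untreated lineages was not seen again in nuclei: over 46 barcodes with 20 or more members in UNT cells and in UNT nuclei, the rank correlation of medians was -0.202 (Pearson -0.177), between libraries that share no sample. Many medians were loosely set, as in 71-94367, with intervals of 3.39% to 4.06% in 37 cells and 7.79% to 10.3% in 34 nuclei. The correlation therefore cannot show whether an order is shared.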

How the data were processed

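The files held 1 table of cells with the authors' annotations and lists of barcode sequences; no matrix of genes by cells was analysed here. The authors used Cell Ranger ARC 1.0.0 for the nuclei, Cell Ranger 4.0.0 for the hashtagged cells and 3.1.0 for the run 1 cells, all with the mm10 reference, then Seurat 3.1.4 for filtering and clustering and Monocle3 0.2.1 for pseudotime, per the design text and the submitters' processing notes. Which mitochondrial genes entered the share is not given in the sources used here. The deposited percent is the share of a cell's UMIs in mitochondrial genes. The deposited counts are UMIs and genes per cell, not normalized. The deposited score columns are S and G2M scores (cells only) and pseudotime. Share times UMIs was within 1e-06 of a whole number in every cell, which gave the mitochondrial UMIs.

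Cells were grouped by the deposited condition name after matching libraries to the labels. Each condition has 1 library or hashtag sample, so values were compared without a test: medians with exact order-statistic intervals, differences with combined intervals, and shares with exact Clopper-Pearson intervals, all at 95% and for counting error only. UMIs are the depth, with medians from 11266.5 (ERI3) to 20877 (ERI4 cells) in cells, and of 3427.5 and 2089 in UNT and ERI4 nuclei. Clusters or lineages with under 20 cells in a condition got no value. No doublet caller was run; cells called Doublet or Multiplet by barcode were left out of lineages and, as an alternative, of everything. Pairs of cell libraries shared 12 to 26 cell barcodes, the nuclei libraries 134. In ERI4 nuclei only 17.2% had a single called barcode, so lineage values there describe few nuclei. The 179 cells outside the stated filter were kept. Clusters were named if they held 10% of a condition or had the highest or lowest median, and lineages if they had 20 cells in 3 cell conditions or the extreme difference of a pair; others are named as exceptions. The members, clusters and lineages were chosen with earlier results of these data known. Alternatives were the stated filter, no cluster 13, a common UMI window (highest 10th to lowest 90th percentile), pooled UMIs, G1 cells, no Doublet or Multiplet, other barcode limits and calls, and, added after seeing the data, thinning to 1000 UMIs with shallower cells left out, the round 3 against round 1 pairs, and cluster 8 without its 2 main lineages. Python 3.11.15, pandas 2.3.3, numpy 2.4.6, scipy 1.17.1 and matplotlib 3.10.9 were used, and the calculations were tested on simulated data.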

Additional observations from a re-analysis of the deposited data

Results flagged for a closer look

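The same step was compared in cells and nuclei (ERI4 against UNT) and under both drugs (each pair of rounds), for 5 measures, and 6 of the 20 comparisons went in opposite directions. With 1 library per condition none of these differences was tested. The ERI4 minus UNT difference in median mitochondrial UMIs was 221 between whole cells and -45 between nuclei. For other UMIs the same differences were 2244 and -1289.5, while the mitochondrial share was higher in ERI4 in both. From round 1 to 2 the median share was 0.766 percentage points higher with eribulin and differed by -0.00117 with paclitaxel, which is no more than a level value. Other UMIs over that step differed by -195 with eribulin and were 4855 higher with paclitaxel, where no recovery is named after the last round of PAC2. Other UMIs in round 3 differed from those in round 1 by -5891 with eribulin and by 1092.5 with paclitaxel. Between these rounds the share of cells over 10% mitochondrial differed by -0.648 percentage points with eribulin and by 0.999 with paclitaxel.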

How the results depend on the processing

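No paired analysis was possible because each condition has 1 library. Of 76 alternative values of differences between conditions, 61 stayed within the interval of the reported value. In G1 cells ERI4 minus UNT cells was 0.820, ERI3 minus ERI2 -0.967 and ERI2 minus PAC2 1.10. With UMIs pooled, ERI4 minus UNT nuclei was 4.46, PAC3 minus PAC2 -0.392, ERI1 minus PAC1 0.102 and ERI3 minus PAC3 0.295. In a common UMI window the nuclei difference was 4.57, and thinning to 1000 UMIs gave 0.1 for ERI1 minus PAC1. Thinned shares come in steps of 0.1 points, too coarse to show whether that difference moved. PAC2 minus PAC1, near 0, turned to 0.0196 in the window, 0.170 with UMIs pooled and 0.00393 without Doublet and Multiplet cells. Its within-lineage median of 0.0562 turned to -0.0437 with the first revision of the barcode call. With 50 cells per lineage the PAC3 minus PAC2 median was -0.541, from the single lineage left, and the ERI1 minus PAC1 median turned from -0.0854 to 0.224. The latter was 0.00300 in the window. Of single lineages, in the window 18-67263 and 4-67693 (PAC2 minus PAC1) turned to 0.0180 and 0.0582, 36-56638 (ERI1 minus PAC1) to -0.0182 and 65-62538 (PAC3 minus PAC1) to 0.0262. With the first revision 6-93034 turned to 0.0899 (PAC3 minus PAC2) and -0.0445 (ERI1 minus PAC1). The intervals of all 6 included 0 as reported. The causes were not tested. ERI3 minus ERI1 was -0.157 in G1 cells. It was 0 when thinned, where the same steps are too coarse to resolve it. PAC3 minus PAC1 was -0.222 with UMIs pooled. With 10 cells per lineage the ERI3 minus ERI1 median was -0.196 in place of -0.634. The 42 alternatives for lineages against their cluster covered only 7 results, whereas cells gave 131 combinations of lineage, cluster and condition. None of the 42 changed sign. Of them 2 left the interval, those of 76-49517 in cluster 7 among G1 cells (1.47 in ERI1 and 2.73 in PAC2). The 7 were chosen with earlier results of these data known, so they cannot show how stable the other combinations are. The share of cells over 10% moved with the threshold and, in all 6 conditions of run 2, with thinning. Lineages with fewer than 20 cells give no value. In percentage points the counting error was largest in nuclei, where the counting standard deviation of 1 nucleus at the median was 0.499 (UNT) and 0.732 (ERI4) percentage points.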

Other observations

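Cells without a called barcode had slightly higher mitochondrial shares than cells with a single called barcode in 7 of 8 cell conditions. The medians were 4.19% against 3.66% in ERI2, 3.22% against 2.84% in PAC2, 2.81% against 2.59% in PAC3 and 3.20% against 3.02% in ERI1. The exception was ERI4 cells, with 4.69% against 4.71%. Uncalled cells were also shallower in all 8, for example with 13542 against 18009 UMIs in ERI2. In nuclei the order was the other way, with 12.6% in uncalled and 14.2% in called ERI4 nuclei, at 1965 and 3070 UMIs, and 9.34% against 9.45% in UNT nuclei. Lineage values of ERI4 nuclei therefore come from deeper nuclei with a higher share than the rest of their library. In ERI1, the 27 cells with 64000 or more UMIs had a median of 1.74%, below the 2.82% of the 240 cells with 32000 to 64000 UMIs.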
